A study of Xenopus laevis with 15 samples.

Results

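The genes described here were 4 of the 45099 gene models in an RNA sequencing table of whole Xenopus laevis embryos, selected by their symbols in that table: chrnd, chrng, kcnj2 and ldb3-like.1. They encode the delta and gamma subunits of the muscle acetylcholine receptor, an inward rectifier potassium channel and a protein of the muscle Z-disc. All 4 passed the filter of a mean of at least 1 FPKM (fragments per kilobase of gene model, scaled to the library's mapped fragments) over the 15 libraries, as did 13192 gene models in all. The genes were chosen with their values in all 3 groups already known, so their levels and differences are given as a description, without p-values. Whether a gene passed the threshold used for all gene models is stated beside the share of all gene models that did, and supports nothing.

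Skeletal muscle forms from the somites, which arise from the paraxial mesoderm, a tissue in which retinoic acid signalling is known to act. The acetylcholine receptor of embryonic muscle is a channel built of alpha, beta, gamma and delta subunits, opened by acetylcholine released from motor nerves, and in adult muscle the epsilon subunit takes the place of gamma. The channel encoded by kcnj2, Kir2.1, carries inward rectifier potassium current and helps to set the resting potential of muscle cells. In mammals, Ldb3 (also called ZASP or Cypher) has PDZ and LIM domains, binds alpha-actinin and holds the Z-disc together during contraction.

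Embryos from a single clutch were exposed in their dishes from stage 6 to stage 18, a neurula stage, to 0.1% ethanol (the vehicle) or to NRX204647 at 10 nM or 1 µM. NRX204647 is a retinoid receptor ligand known here by its code name, and per the labels 10 nM acts on retinoic acid receptor gamma while 1 µM acts on all subtypes of that receptor. There were 5 libraries for each treatment, each made from 5 embryos. The labels describe a dish of 25 embryos split into 5 aliquots and name no further dishes for a group, so treatment and dish cannot be told apart, and all errors below measure the spread between aliquots. Because whole embryos were used, fewer muscle cells, less RNA per muscle cell and a change in other cells cannot be told apart either.

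Depth relative to the deepest library was recovered from the step that 1 read makes in the FPKM values. It was 0.312 to 0.833 with vehicle, 0.259 to 0.646 at 10 nM and 0.535 to 1 at 1 µM. The most abundant gene model took 23.6% to 45.5% of all FPKM in the vehicle libraries, 17.6% to 32.9% at 10 nM and 14.5% to 26.2% at 1 µM. The share of summed FPKM left to all other gene models together thus differed between groups on average. FPKM is scaled to mapped fragments, so this is not a share of reads. Values scaled without the most abundant gene model are given below. Of 183 names in muscle gene lists, 11 had a row in the table, these 4 included. The lists were matched by symbol alone, and the table held 754 named symbols for 45099 gene models. A list gene without a row may therefore be among the gene models without a name. The sarcomere list was represented by myom3 alone, at 0 to 0.0328 FPKM, so muscle identity could not be checked against sarcomere genes.

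The delta subunit gene chrnd stood at 10.9, 6.87, 7.76, 7.05 and 6.44 FPKM in vehicle replicates 1 to 5. At 10 nM its levels were 7.51, 7.02, 6.40, 6.79 and 6.64 FPKM, and at 1 µM they were 3.42, 2.66, 3.81, 2.49 and 4.10 FPKM. Every 1 µM library lay below every vehicle library and every 10 nM library. The vehicle and 10 nM ranges overlapped, with the 10 nM library higher in 7 of 25 pairs, and vehicle replicate 1 stood apart at the top. The group means were 7.81 ± 1.81, 6.87 ± 0.422 and 3.30 ± 0.705 FPKM (SD, n = 5 each), so that the 1 µM mean was 42.2% of the vehicle mean.

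The gamma subunit gene chrng behaved differently. Its levels were 8.03, 5.91, 5.66, 7.32 and 4.97 FPKM with vehicle, 9.59, 9.89, 8.08, 8.52 and 6.65 FPKM at 10 nM, and 7.20, 6.21, 6.16, 3.87 and 4.71 FPKM at 1 µM. No pair of groups was separated. A 10 nM library was above a vehicle library in 23 of 25 pairs, and a 1 µM library was above a 10 nM library in 1 of 25 pairs. The group means were 6.38 ± 1.26 with vehicle, 8.54 ± 1.29 at 10 nM and 5.63 ± 1.32 FPKM at 1 µM, so that the 10 nM group was highest and the vehicle and 1 µM groups differed by less than 1 SD.

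**Figure D1:**
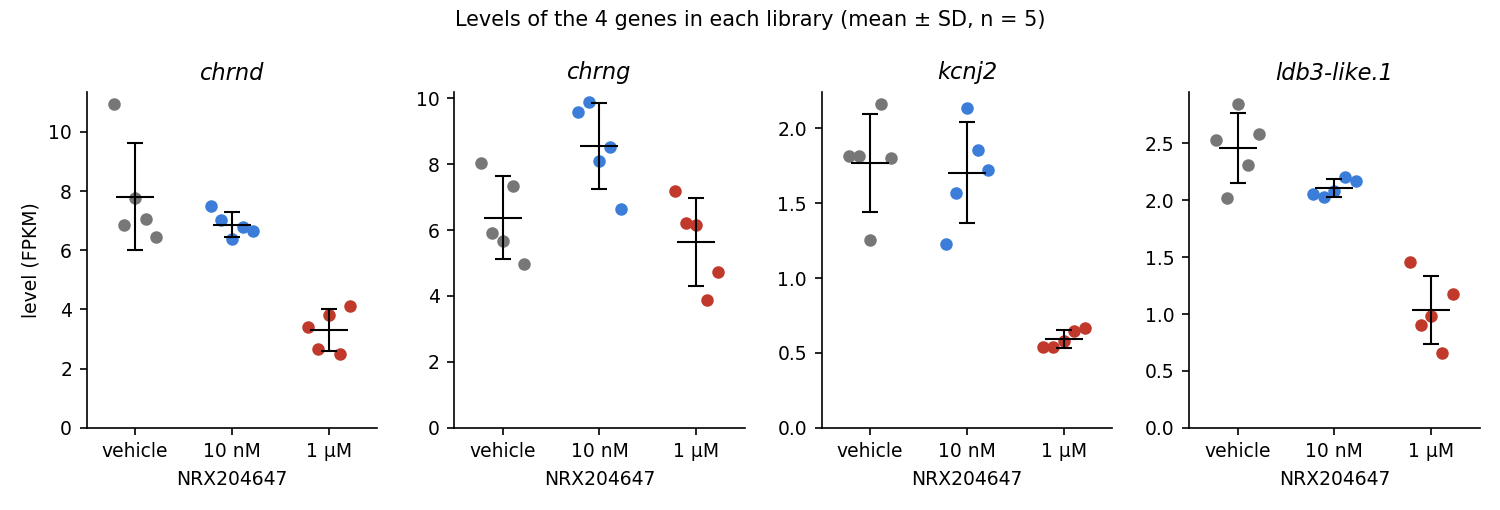
Level in FPKM (linear axes from 0) of chrnd, chrng, kcnj2 and ldb3-like.1 in each of the 5 libraries of the vehicle, 10 nM and 1 µM groups, with the mean and SD as black bars. For chrnd, kcnj2 and ldb3-like.1 all 1 µM libraries sit below all others, while chrng is highest at 10 nM and its groups overlap.

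The receptor subunit genes could be set against each other within each library, since FPKM is a level per length and the ratio does not depend on how the libraries are scaled. The ratio of chrng to chrnd was 0.734, 0.861, 0.729, 1.04 and 0.773 with vehicle. It was 1.28, 1.41, 1.26, 1.25 and 1.00 at 10 nM, and 2.11, 2.33, 1.62, 1.55 and 1.15 at 1 µM. The chrng FPKM was thus below the chrnd FPKM in 4 of 5 vehicle libraries. It was above the chrnd FPKM in all 5 libraries at 10 nM, where the lowest ratio was 1.001, and in all 5 at 1 µM. Whether either transcript was the more abundant was not tested. The ranges of vehicle and 1 µM did not overlap, those of vehicle and 10 nM overlapped slightly, and those of the doses overlapped. A ratio to chrnd rises at 1 µM for any gene that falls less than chrnd does. The genes were chosen with their values known, and the ratio to chrnd was not taken for all gene models. Nothing is therefore read from this separation. The mean ratios were 0.827 ± 0.130, 1.24 ± 0.148 and 1.75 ± 0.470 (SD, n = 5 each).

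The other ratios to chrnd overlapped between all groups. For ldb3-like.1 the ratio was 0.324 ± 0.0660 with vehicle, 0.308 ± 0.0250 at 10 nM and 0.315 ± 0.0710 at 1 µM. For kcnj2 it was 0.236 ± 0.0680, 0.251 ± 0.0630 and 0.187 ± 0.0450. In RefSeq's Xenopus_laevis_v10.1 table, chrnd.L and chrng.L are neighbours with 0 genes starting between them.

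**Figure D2:**
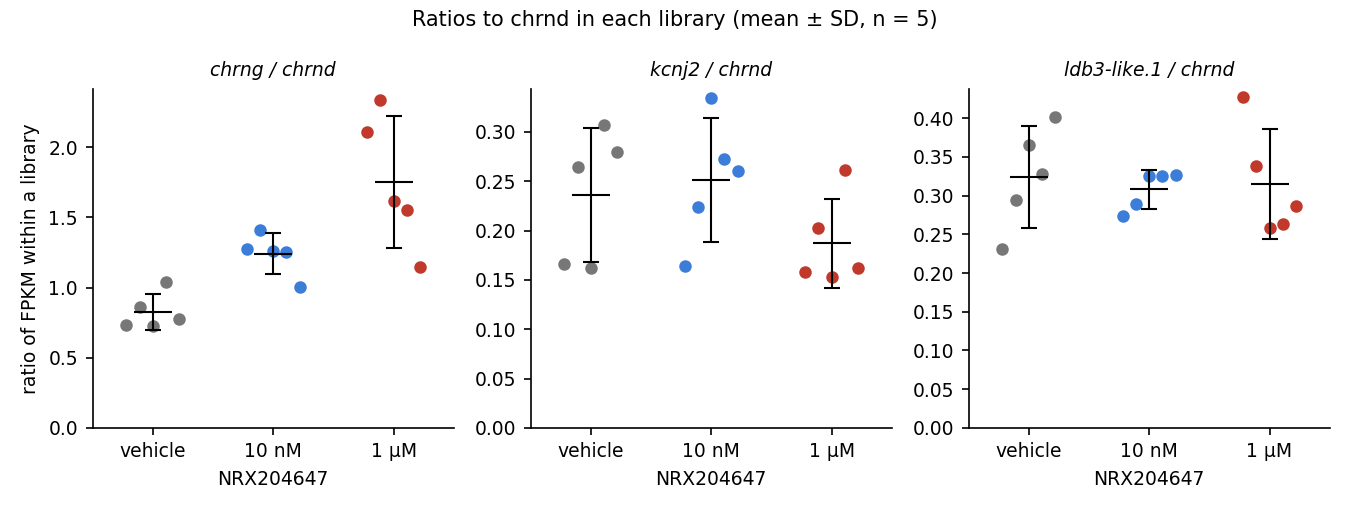
Ratio of FPKM within each library, for chrng, kcnj2 and ldb3-like.1 each over chrnd (linear axes from 0), with points for the 5 libraries of a group and the mean and SD as black bars. The ratio of chrng to chrnd is 0.729 to 1.04 with vehicle and 1.15 to 2.33 at 1 µM, and the other ratios overlap in all groups.

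The potassium channel gene kcnj2 had the lowest level of the 4 genes and the largest proportional difference. It stood at 1.81, 1.82, 1.25, 2.16 and 1.80 FPKM with vehicle and at 1.23, 1.57, 2.14, 1.85 and 1.73 FPKM at 10 nM. At 1 µM its levels were 0.540, 0.540, 0.583, 0.648 and 0.667 FPKM, all below the lowest library of the other groups. The 1 µM mean of 0.596 ± 0.0594 FPKM was 33.7% of the vehicle mean of 1.77 ± 0.327 FPKM, while the 10 nM mean of 1.70 ± 0.338 FPKM was 96.2% of it (SD, n = 5 each). The vehicle and 10 nM ranges nearly coincided. Because its 1 µM mean was under the filter of 1 FPKM, kcnj2 passed that filter only through its vehicle and 10 nM levels.

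The Z-disc gene ldb3-like.1 stood at 2.53, 2.02, 2.84, 2.31 and 2.59 FPKM with vehicle, and at 2.06, 2.03, 2.08, 2.21 and 2.17 FPKM at 10 nM. At 1 µM its levels were 1.46, 0.901, 0.984, 0.654 and 1.18 FPKM, again below every library of the other groups. The means were 2.46 ± 0.309, 2.11 ± 0.0766 and 1.04 ± 0.303 FPKM (SD, n = 5 each). The 10 nM libraries lay within a narrow band near the bottom of the vehicle range, and the 1 µM mean was 42.1% of the vehicle mean. The lowest 1 µM library for chrnd, chrng and ldb3-like.1 was replicate 4, the shallowest of that group, whereas for kcnj2 replicate 4 was the second highest.

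Differences between groups were estimated with limma on log2(FPKM + 1), a scale that understates the change of low genes. At 1 µM against vehicle they were -1.03 ± 0.13 for chrnd, -0.79 ± 0.11 for kcnj2, -0.77 ± 0.10 for ldb3-like.1 and -0.16 ± 0.15 for chrng (SE). The first 3 of these passed an adjusted p under 0.05 and chrng did not, beside 16.6% of all tested gene models called lower, 28.9% called higher and 45.6% called in either direction. All 5 libraries at 1 µM lay below all 5 vehicle libraries for 3 of the 4 genes and for 11.4% of tested gene models, while 20.7% were separated the other way. Since the genes were picked with this contrast known, nothing is read from these counts. The median difference over all tested gene models was 0.09, and relative to it the genes stood at -1.12 for chrnd, -0.88 for kcnj2, -0.86 for ldb3-like.1 and -0.25 for chrng. The share of tested gene models with a lower difference was 2.0% for chrnd, 3.9% for kcnj2, 4.1% for ldb3-like.1 and 28.6% for chrng. The genes were picked with these differences known, so nothing is read from these ranks either.

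At 10 nM against vehicle the differences were 0.38 ± 0.15 for chrng, -0.14 ± 0.13 for chrnd, -0.15 ± 0.10 for ldb3-like.1 and -0.04 ± 0.11 for kcnj2 (SE). None of the 4 passed the threshold in this limma fit, in which 13.0% of all tested gene models were called higher, 10.3% lower and 23.3% in either direction. None of the 4 had all 10 nM libraries on one side of all vehicle libraries, as 8.12% of tested gene models did above and 5.92% below. Of tested gene models, 83.9% had a difference lower than that of chrng. A p that misses the threshold does not show that the groups were alike: for chrnd and ldb3-like.1 the 10 nM means were 88.0% and 85.7% of the vehicle means.

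At 1 µM against 10 nM all 4 genes were lower, by -0.89 ± 0.13 for chrnd, -0.75 ± 0.11 for kcnj2, -0.62 ± 0.10 for ldb3-like.1 and -0.54 ± 0.15 for chrng (SE), and all 4 passed, beside 7.72% of tested gene models called lower, 16.1% called higher and 23.8% called in either direction. The median over all tested gene models was 0.08. For 3 of the 4 genes all 1 µM libraries lay below all 10 nM libraries, as they did for 6.06% of tested gene models, and 12.5% were separated the other way. This comparison and that against vehicle share the 1 µM libraries. The chrng value was -0.49 ± 0.19 and did not pass without the 5 shallow libraries, those with a relative depth under 0.4. The joint pattern of chrnd, kcnj2 and ldb3-like.1, lower at 1 µM than in both other groups and not called between those, was that of 4.46% of tested gene models (588). The pattern of a rise at 10 nM, a lower level at 1 µM than at 10 nM and no call between 1 µM and vehicle held for 0.743% of tested gene models and, in this fit, for 0 of the 4 genes.

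**Figure D3:**
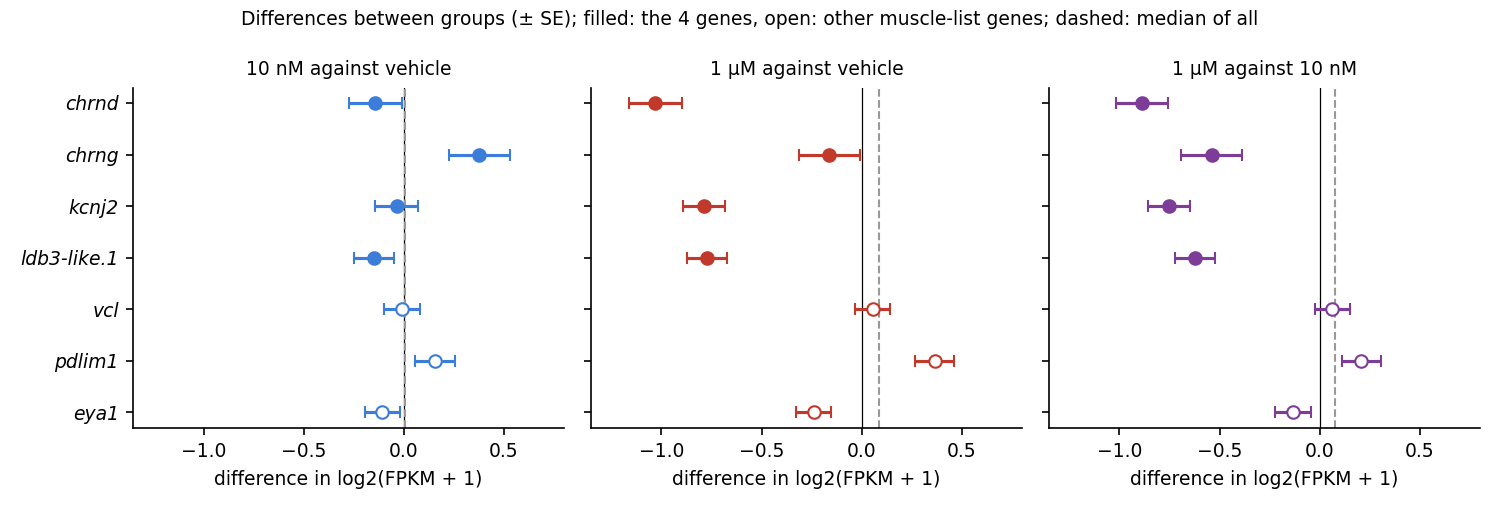
Difference between groups in log2(FPKM + 1), with SE bars, for each dose against vehicle and for the higher dose against the lower. Filled points are chrnd, chrng, kcnj2 and ldb3-like.1, open points are the other tested muscle-list genes vcl, pdlim1 and eya1, and the dashed line is the median of 13192 gene models. At 1 µM chrnd, kcnj2 and ldb3-like.1 lie between -1.03 and -0.77 against vehicle, and chrng lies at -0.16.

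At 1 µM the sign of all 4 genes, against vehicle and against 10 nM, was the same under every scaling run. The scalings reuse the libraries from which the genes were chosen. How many of all gene models kept their sign was not counted, so nothing is read from this. With the total of all gene models but the most abundant set equal, the median of all gene models at 1 µM against vehicle moved from 0.09 to -0.09. The differences were then -1.24 for chrnd, -0.92 for kcnj2 and -0.94 for ldb3-like.1. With this total chrng, at -0.38 ± 0.12, passed the threshold, beside 4026 of 13192 tested gene models called lower and 2577 called higher. On the deposited scale 2195 were called lower and 3814 higher, so nothing is read from the chrng call. Higher calls made up 63.5% of all calls at 1 µM against vehicle on the deposited scale. Scaling by the median of ratios gave 51.6%, quantile normalization gave 44.7% and the common total gave 39.0%. At 10 nM against vehicle they made up 55.8%, 52.0%, 44.8% and 27.7% in the same order, and at 1 µM against 10 nM 67.5%, 51.8%, 47.6% and 55.1%.

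The read support of the genes was similar in spite of their different levels, because their gene models differ in length. Relative to chrnd, the effective length recovered from the 1-read steps was 0.863 for chrng, 3.71 for ldb3-like.1 and 4.87 for kcnj2. Over all 15 libraries 1526 recovered reads fell on chrnd, 1598 on chrng, 1685 on kcnj2 and 1820 on ldb3-like.1. The lowest single library held 41 reads for chrnd, 49 for chrng, 52 for kcnj2 and 40 for ldb3-like.1. In the 1 µM libraries kcnj2 rested on 52 to 87 reads, against 70 to 260 with vehicle, although the 1 µM group was the deepest on average.

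The spread between libraries was compared with the counting error of these reads, which covers sampling alone. For chrnd the coefficient of variation was 23.2% with vehicle and 21.4% at 1 µM, against counting errors of 9.6% and 11.5%. At 10 nM it was 6.1%, below the counting error of 10.7%. The spread of ldb3-like.1 went from 3.6% at 10 nM, with a counting error of 10.0%, to 29.2% at 1 µM. For kcnj2 the spread at 1 µM was 10.0%, no larger than its counting error of 11.8%. For chrng it was 15.1% to 23.5% in the 3 groups, above the counting errors of 9.6% to 11.6%.

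**Figure D4:**
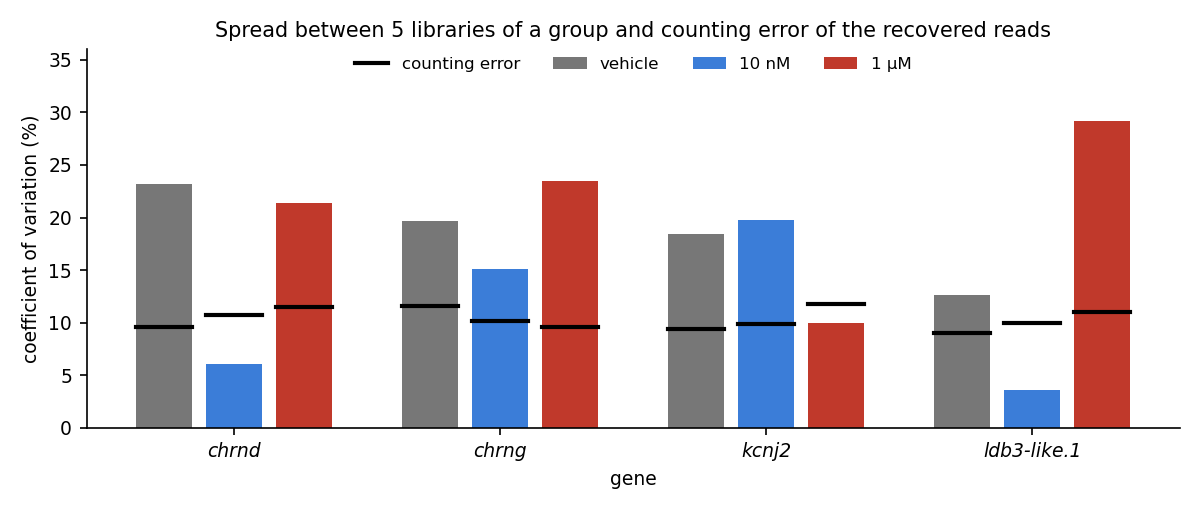
Coefficient of variation of FPKM over the 5 libraries of each group (bars, percent, from 0) for each gene, with the counting error of the recovered reads as black lines. The bars of chrnd and ldb3-like.1 at 10 nM and of kcnj2 at 1 µM lie below the counting error, and that of ldb3-like.1 at 1 µM is the highest at 29.2%.

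Among the other 7 muscle-list genes with a row, 3 passed the filter. None was called at 10 nM against vehicle or between the doses, and at 1 µM against vehicle 1 was higher, 1 was lower and 1 was not called, with a median of 0.06 beside 0.09 for all tested gene models. The higher one was pdlim1, for a PDZ and LIM domain protein that binds alpha-actinin, at 20.5 ± 1.67 FPKM with vehicle, 23.0 ± 2.14 at 10 nM and 26.8 ± 3.44 at 1 µM (SD, n = 5 each). Its difference at 1 µM was 0.36 ± 0.10 (SE, limma adjusted p = 0.00717), and it did not pass with median-of-ratios scaling (0.25, adjusted p = 0.0525), quantile normalization (0.11, adjusted p = 0.405), the common total (0.12, adjusted p = 0.325), voom on the recovered reads (0.28, adjusted p = 0.0546) or without the shallow libraries (0.36, adjusted p = 0.0685). The lower one was eya1, a transcriptional coactivator that acts in somites and in placodes, at 2.25 ± 0.218, 2.03 ± 0.268 and 1.76 ± 0.277 FPKM. Its difference was -0.24 ± 0.09 (SE, limma adjusted p = 0.0377), and it did not pass in 10 of 26 alternatives, 7 of which left out a single library: vehicle replicate 1, 2, 4 or 5, or 1 µM replicate 1, 4 or 5 (adjusted p from 0.0556 to 0.0938). The third was vcl, for vinculin, which links actin to the membrane, at 6.64 ± 0.824, 6.57 ± 0.640 and 6.90 ± 0.363 FPKM.

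The other 4 genes were under the filter and were not tested. Acetylcholinesterase, encoded by ache, ends the signal at the receptor by breaking down acetylcholine. Its level was 0.116 to 1.37 FPKM with vehicle, 0.811 to 1.52 FPKM at 10 nM and 0.345 to 0.832 FPKM at 1 µM, with overlap between all groups. A 10 nM library was above a vehicle library in 20 of 25 pairs. A 1 µM library was above a vehicle library in 10 of 25 pairs and above a 10 nM library in 1 of 25. The vehicle libraries held 4 to 110 recovered reads for ache. The epsilon subunit gene chrne was listed at 0 in all 5 vehicle libraries, at 0 to 0.329 FPKM at 10 nM and at 0 to 0.314 FPKM at 1 µM. Its recovered reads were 0 in every vehicle library, 2, 1, 1, 0 and 2 in 10 nM replicates 1 to 5, and 0 to 2 at 1 µM. Each library was thus under the 3 reads that a count of 0 allows, so no fold is given, and the groups were not tested. The developmental transcription factor gene tcf21 was at 0 to 0.156 FPKM.

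Matched by symbol alone, few markers of other cell types had a row. Of 16 neural genes 1 did (sox2), of 17 epidermal and cement gland genes 1 (grhl3) and of 8 neural crest genes 1 (sox9), while for the notochord, endoderm, blood and vessel, and kidney lists 0 did. The epidermal gene grhl3 was at 17.3 to 20.8 FPKM with vehicle, 22.4 to 24.9 FPKM at 10 nM and 13.3 to 16.3 FPKM at 1 µM, and thus, like chrng, was highest at 10 nM. It was called in all 3 comparisons (limma adjusted p = 0.00900 for 10 nM and 0.00357 for 1 µM against vehicle). These calls were made on the deposited scale, and other scalings were not examined for the genes of other cell types. The neural gene sox2 was at 2.06 to 4.64 FPKM, 0 to 1.86 FPKM and 0.744 to 2.40 FPKM in the same order, with log2 differences from vehicle of -1.24 ± 0.27 at 10 nM and -0.70 ± 0.27 at 1 µM (SE). These sox2 values rest on few recovered reads, 10 to 31 per library with vehicle, 0 to 12 at 10 nM and 8 to 20 at 1 µM. The neural crest gene sox9 was at 2.09 to 3.11 FPKM, 1.25 to 2.87 FPKM and 5.09 to 6.74 FPKM, with a log2 difference from vehicle of 0.89 ± 0.13 at 1 µM (SE). These levels moved with the groups in different directions, and the part of other cell types in the muscle values was not tested.

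The named genes whose pattern was most like that of each gene were found by the root mean square difference of their log2(FPKM + 1) values over the 15 libraries, after each gene's own mean was taken off, among 316 other named gene models. For chrnd these were tll1-like.1 at 0.236, smarca5 at 0.301 and zfp36l1 at 0.312, while ldb3-like.1 was at 0.214 from chrnd and kcnj2 at 0.271. For kcnj2 they were smarca5 at 0.188, tll1-like.1 at 0.201 and slc7a5 at 0.212, all nearer than the closest of the 4 genes, ldb3-like.1 at 0.218. For ldb3-like.1 they were nol6 at 0.179, tll1-like.1 and mta1, both at 0.199, again nearer than the closest of the 4 genes, chrnd at 0.214. The tolloid-related gene tll1-like.1 thus came up for 3 of the 4 genes, with levels of 2.79 ± 0.409 FPKM with vehicle, 2.03 ± 0.225 at 10 nM and 1.015 ± 0.115 at 1 µM (SD, n = 5 each).

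For chrng the list was a different one, with grhl3 at 0.198, ipo11 at 0.235 and kiaa0020 at 0.237. The distance from chrng to chrnd was 0.415, and those to kcnj2 and ldb3-like.1 were 0.380 and 0.350. These distances describe the 15 libraries, which share their groups and scaling, and flat genes such as kiaa0020, at 16.2 ± 1.33, 18.2 ± 0.341 and 16.3 ± 1.73 FPKM, can lie close to a gene with small differences.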

How the data were processed

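Per the labels' protocols, embryos in 60-mm dishes holding 10 mL of medium were harvested as aliquots, 100 ng of total RNA was amplified with the NuGEN Ovation system, and libraries were read on a SOLiD 5500xl sequencer as single, non-directional reads of 50 nt. Reads of overlapping genes therefore cannot be told apart, and reads shared by the paired gene copies of this species may be split. The authors deposited 1 table of FPKM values with a column for each library. The submitters' processing notes name Bowtie, TopHat and Cufflinks. Tool versions, genome build and gene annotation were not given in the sources used here. No identifier matched the RefSeq table (0), and 3 of the 4 symbols have a copy there (chrnd.L, chrng.L and kcnj2.S).

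Values were tested as log2(FPKM + 1) where a gene model's mean reached 1 FPKM, with limma 3.58.1 in R 4.3.3 (all 15 libraries in 1 fit, mean-variance trend, two-sided, Benjamini-Hochberg adjustment over 13192 gene models, called under 0.05). The fit was also run on simulated data with independent libraries and no effect of scaling or dish. That run says nothing about such effects here. Whole reads were recovered within 0.03 reads for 99.2% of 34147 gene models with values in at least 2 libraries, and for 98.2% of those tested. For gene models with values in few libraries such a fit is nearly always found, so these shares say little about them. Recovered reads in tested gene models summed to 2550437 to 10466205 per library. The smallest whole numbers were taken, so reads may be underestimated where a gene model's true counts share a common factor. Figures were drawn with matplotlib 3.10.9 under Python 3.11.15. Among 30 pairs of libraries within groups 0 held identical values, and recovered reads differed by more than counting error (chi-square over its degrees of freedom 5.70 to 20.0).

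The members, the gene lists and the tests were chosen with earlier results of these data known. Named were the 4 genes, every other tested gene of the muscle lists and of the lists for other cell types, and the 3 most alike named gene models for each of the 4. Alternatives were other pseudocounts, filters, scalings, library weights, a replicate block, fits of only the groups compared and leaving out each library. The common total, voom and leaving out shallow libraries were added after the data were seen.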

Additional observations from a re-analysis of the deposited data

How the results depend on the processing

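In 1 µM against vehicle, chrnd, kcnj2 and ldb3-like.1 kept their sign and their call in all alternatives run, 27 for chrnd and 26 for the others, which a filter at a mean of 5 FPKM removed. The alternatives reuse the libraries from which these genes were chosen. How many of all called gene models kept their call was not counted, so this supports nothing. Leaving out each library gave -1.10 to -0.92 for chrnd, -0.86 to -0.74 for kcnj2, -0.84 to -0.70 for ldb3-like.1 and -0.24 to -0.06 for chrng. Sizes depended on the scale: kcnj2 was -1.41 with a pseudocount of 0.1, -0.27 with 5 and -1.71 with voom. Of the other members' results, chrng passed at 10 nM against vehicle with the replicate block (0.38), beside 1667 of 13192 gene models called higher. With the block it was also lower at 1 µM than at 10 nM and not called between 1 µM and vehicle. The share of gene models with this joint pattern was not counted with the block, so nothing is read from it. At 1 µM against vehicle chrng passed with the common total (-0.38), beside 4026 of 13192 gene models called lower. It missed the threshold at 1 µM against 10 nM without the shallow libraries (-0.49). At 10 nM against vehicle chrnd was 0.04 without the shallow libraries, and kcnj2 was 0.01 without vehicle replicate 4 and 0.03 without 10 nM replicate 1, each with the opposite sign to its value with all libraries. None of these was called. Replicate numbers did not pair the samples: deviations of same-numbered libraries correlated from -0.11 to 0.11, and a library's own number was the best match in 6 of 30 cases. The block gave 2933, 5966 and 3051 called gene models for the lower dose, the higher dose and the difference between doses, against 3074, 6009 and 3136 without it. A filter at 5 FPKM gave 1560, 2250 and 1047, leaving fewer gene models to test, and the 10 nM count was 673 without the shallow libraries, which left 2 with vehicle and 3 at 10 nM. Of the other muscle genes at 1 µM against vehicle, 2 were called. This became 1 with the filter at 5 FPKM, which removed eya1. The count was also 1 with no filter, median-of-ratios scaling, quantile normalization, the block, the common total and voom. It was 0 without the shallow libraries and 1 to 2 on leaving out single libraries. At 10 nM it was 1 with the common total in place of 0. Except as named, the cause was not tested. Depth limits genes such as chrne, with at most 2 reads per library.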

Other observations

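Genes on the nerve side of the cholinergic synapse and a few further muscle genes had a row but were in no list, and were picked from the symbols after the table had been opened. The vesicular acetylcholine transporter gene slc18a3 was at 0.0630 to 0.392 FPKM with vehicle, 0.271 to 0.791 FPKM at 10 nM and 0.153 to 0.588 FPKM at 1 µM, on 3 to 21 recovered reads per library. Choline acetyltransferase, encoded by chat, was at 0 to 0.278 FPKM with vehicle, 0 to 0.339 FPKM at 10 nM and 0 to 0.0497 FPKM at 1 µM. It was listed at 0 in 2, 1 and 4 of 5 libraries in the same order, and no library held more than 5 reads. Both were under the filter.

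The muscle cadherin gene cdh15 stood at 3.77 ± 0.663 FPKM with vehicle, 3.56 ± 0.498 at 10 nM and 3.13 ± 0.267 at 1 µM (SD, n = 5 each). Its difference at 1 µM against vehicle was -0.20 ± 0.10 on the log2(FPKM + 1) scale and was not called (limma adjusted p = 0.130). The intermediate filament gene sync, for syncoilin, was at 0.0787 to 0.402 FPKM, 0.113 to 0.977 FPKM and 0.403 to 0.658 FPKM in the 3 groups. Recovered reads per library were 1 to 11 with vehicle, 1 to 17 at 10 nM and 11 to 22 at 1 µM. Every 1 µM library lay above every vehicle library for sync, but barely. The closest were 1 µM replicate 3 at 0.4032 FPKM and vehicle replicate 4 at 0.4023 FPKM, each on 11 reads. Among tested gene models, which do not include sync, 20.7% were separated in this way. The gene was under the filter and was not tested. The gene msc was listed at 0 in all 15 libraries.

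Among 30 sets of 5 libraries (10 genes in 3 groups), 0 held a library beyond Dixon's critical value. The nearest was chrnd in vehicle replicate 1, with a gap of 0.706 of the group's range.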
